A study of Mus musculus with 26 samples.

Results

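The xenobiotic metabolism genes described here are 37 named genes through which liver cells sense, modify and export foreign compounds. They were taken as the lines of the deposited count table that carry those names, among 36883 gene names in all. Every one of the 37 was found, and every one passed the filter on low counts that left 16892 genes for testing. They comprise 3 receptors, 19 phase I genes including the P450 reductase Por, 13 phase II genes and 2 efflux pumps. The list was not drawn from values of a single comparison, but it was proposed with earlier results of these data in view.

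The libraries came from the livers of Eu-MYC mice, whose MYC transgene is under the enhancer of the immunoglobulin heavy chain and so acts in the B cell lineage. All 4 groups carry the transgene, and none without it was analysed here. The mice were held in chronic jet lag (CJL), given as 8 weeks, or in lighting with 12 hours of light and 12 hours of dark (12:12), for which no duration is stated. There were 8 females under 12:12, 8 females under jet lag, 6 males under 12:12 (numbered 1 to 6) and 4 males under jet lag (numbered 5 to 8). Each library is labelled with an animal number that is unique within its group, and numbers recur between groups. The labels do not say whether a shared number means the same animal. The labels and notes used here state neither age, nor the schedule of the light shifts, nor the hour of tissue collection.

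Foreign compounds and endogenous steroids are handled in steps. The nuclear receptors encoded by Nr1i2 (PXR) and Nr1i3 (CAR), and the aryl hydrocarbon receptor encoded by Ahr, bind such compounds and switch on target genes. Phase I enzymes, chiefly cytochromes P450 that receive electrons from the reductase Por, oxidize the compound. Phase II transferases attach glucuronic acid, glutathione or sulfate, and pumps such as P-glycoprotein move the product out of the cell. In mice many of these genes differ between females and males under the influence of growth hormone secretion. The circadian PAR bZIP factors Dbp, Tef and Hlf are known regulators of several of them, among these Por, Alas1, Nr1i3 and Cyp2a5.

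The 250 bases before the RefSeq start of 4 members are printed 5′ to 3′ on the gene's strand, with matches to searched motifs in capitals. They are Por and Cyp2a5, the members that fell under jet lag, Nr1i3, the receptor with the smallest p-value in that comparison, and Ugt2b1, which was lower in females than in males. The sequences and starts are RefSeq's, build GRCm38.p6, the assembly that mm10 names. The Por window lies inside the span that GENCODE gives the gene, and the Cyp2a5 and Ugt2b1 windows overlap the GENCODE spans of their genes. The window of Por is chr5:135688895-135689144 (+), that of Cyp2a5 chr7:26835089-26835338 (+), that of Nr1i3 chr1:171213720-171213969 (+) and that of Ugt2b1 chr5:86926504-86926753 (-).
Por: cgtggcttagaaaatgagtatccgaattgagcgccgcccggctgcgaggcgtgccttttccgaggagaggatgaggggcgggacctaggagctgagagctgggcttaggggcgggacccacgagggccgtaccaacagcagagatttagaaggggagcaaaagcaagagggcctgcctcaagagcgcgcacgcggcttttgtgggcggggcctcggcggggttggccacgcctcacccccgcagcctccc
Cyp2a5: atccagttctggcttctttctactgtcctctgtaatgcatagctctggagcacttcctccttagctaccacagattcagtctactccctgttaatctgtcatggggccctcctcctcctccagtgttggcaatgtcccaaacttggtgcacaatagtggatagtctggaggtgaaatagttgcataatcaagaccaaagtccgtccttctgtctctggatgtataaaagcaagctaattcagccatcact
Nr1i3: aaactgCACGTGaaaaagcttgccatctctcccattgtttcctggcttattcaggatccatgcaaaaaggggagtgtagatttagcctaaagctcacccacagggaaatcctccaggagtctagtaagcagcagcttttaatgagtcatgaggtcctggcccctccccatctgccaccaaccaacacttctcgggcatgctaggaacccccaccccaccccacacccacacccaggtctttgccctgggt
Ugt2b1: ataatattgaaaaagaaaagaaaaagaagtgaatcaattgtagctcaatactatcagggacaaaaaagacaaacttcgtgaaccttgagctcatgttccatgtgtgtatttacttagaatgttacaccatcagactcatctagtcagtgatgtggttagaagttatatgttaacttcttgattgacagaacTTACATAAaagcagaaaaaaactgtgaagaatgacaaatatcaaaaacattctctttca
RefSeq windows were matched for 32 of the 37 members (Ahr, Cyp2c54, Fmo1, Gsta4 and Abcc3 had none), and 4 motifs were searched on both strands. The E-box CACGTG was in the window of 1 member, Nr1i3, at bases -244 to -239 before the start, and in 6.02% of 32851 windows of the same length. The D-box, searched as TTATGTAA or TTACGTAA, was in 1 member, Ugt2b1, at -59 to -52 on the opposite strand, and in 0.931% of windows. The core of the xenobiotic response element, TNGCGTG, was in 1 member, Gsta2, and in 4.1% of windows. The core of the antioxidant response element, TGACNNNGC, was in 1 member, Gsta3, and in 10.2% of windows. None of the 4 motifs was found in the Por or Cyp2a5 window, which says only that these letters are absent from these 250 bases.

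Library totals ran from 45364552 to 50242014 counts, so that the limit for a gene without counts (3 counts) was 0.0661 CPM at most, CPM being the count divided by the library's total and scaled to 1e6. The 11 hepatocyte markers summed to between 166613 and 289834 CPM in every library. Cd79a, which encodes a chain of the B cell receptor, split the libraries into 18 between 1.28 and 2.95 CPM and 8 between 14.5 and 144 CPM. The 8 were females 6 and 7 and males 3 and 5 under 12:12, and females 2, 5 and 6 and male 8 under jet lag. Counts of called members are also given without them, and so are the values of some members, but not every result is. In bulk tissue, fewer cells of a type and less RNA per cell cannot be told apart.

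The levels of the members, taken per kilobase of exon so that genes can be compared, spanned a wide range. Cyp2e1, which oxidizes ethanol and small solvents, was the highest, with a median of 4519 CPM per kb in females and 4587 in males under 12:12. In females it was followed by Cyp2a5 at 1300, Cyp2c37 at 742 and Cyp2c29 at 656 CPM per kb. In males the next were Cyp3a11 at 960, Cyp2a5 at 947 and Cyp2c29 at 819 CPM per kb. Cyp1a1, a target of the aryl hydrocarbon receptor that is low in unexposed liver, was the lowest, at 0.326 in females and 0.306 in males. The receptors ran from 84.5 CPM per kb for Nr1i3 to 5.51 for Ahr in females under 12:12.

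Under jet lag 2 of the 37 members fell, Por and Cyp2a5, and none rose over both sexes. The other 35 did not pass the threshold (adjusted p of 0.05, edgeR quasi-likelihood test over all 16892 genes). The same test called 132 genes, 0.781% of those tested, of which 57 (0.337%) were lower. By fitted log2 fold change (jet lag minus 12:12), 13 members were positive and 24 negative, with a median of -0.09 beside 0.02 over all genes tested. Por and Cyp2a5 both belong to phase I.

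Por, the membrane reductase that passes electrons from NADPH to all microsomal P450s, ran from 732 to 1273 CPM (median 908) in females under 12:12 and from 343 to 925 CPM (median 537) under jet lag. In males it ran from 619 to 831 CPM (median 663) under 12:12, and the 4 jet lag males held 280, 262, 242 and 693 CPM. Of the jet lag libraries, 5 of 8 females and 3 of 4 males lay below every 12:12 library of their sex. The exception in males was male 8, one of the libraries with high Cd79a, which lay inside the 12:12 range. The fitted log2 fold change was -0.80 (SE 0.15, adjusted p = 0.00883, edgeR), and 10 of 12 jet lag libraries were below the 12:12 median of their sex by CPM, 12 of 12 after TMM scaling. In females alone it was -0.71 (SE 0.19) and in males alone -0.95 (SE 0.25), neither past the threshold after adjustment (0.244 and 0.192). Por also differed in spread, with an SD of log2 CPM within groups of 0.20 under 12:12 and 0.57 under jet lag. These values include male 8, and no test was run on them. On mm10 the gene spans chr5:135670033-135735326, and the annotation places the genes Gm16061 and Gm43091 on the opposite strand within it. No stretch of 50 bases of its transcripts recurs in another gene.

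Cyp2a5, which hydroxylates coumarin and nicotine, ran from 1565 to 3457 CPM (median 2694) in females under 12:12 and from 356 to 2668 CPM (median 1272) under jet lag. In males it ran from 929 to 2253 CPM (median 1963) under 12:12, and the jet lag males held 686, 683, 545 and 854 CPM. All 4 jet lag males lay below all 6 males under 12:12, and 6 of 8 jet lag females lay below all 8 females under 12:12. The log2 fold change was -1.16 (SE 0.23, adjusted p = 0.0105, edgeR), with 12 of 12 jet lag libraries below the 12:12 median of their sex by CPM and 11 of 12 after TMM scaling. Of the 50-base stretches in its transcripts 37% recur in other genes, chiefly its near copy Cyp2a4, and the labels do not say how reads matching both were counted. Cyp2a4 itself had a log2 fold change of -0.68 (SE 0.30, adjusted p = 0.512). With the replicate number as a block, Cyp2a5 had a log2 fold change of -1.30 and an adjusted p of 0.0554, so its call was lost. The authors' deposited table lists the same 2 members as past an adjusted p of 0.05 in its comparison of 12:12 over jet lag, Por at 0.74 and Cyp2a5 at 1.07 on the log2 scale.

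**Figure D1:**
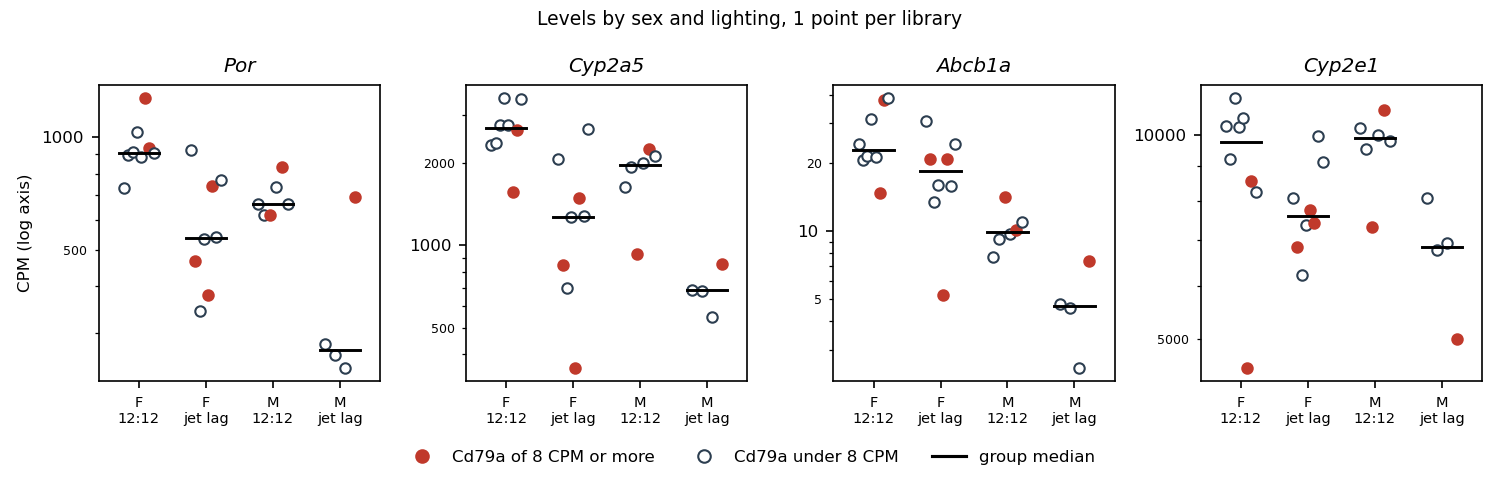
Level in CPM (log axis) of Por, Cyp2a5, Abcb1a and Cyp2e1 in each of the 26 libraries, by sex and lighting; lines are group medians and filled points are the 8 libraries of 8 CPM Cd79a or more. Por is between 242 and 280 CPM in 3 of 4 jet lag males and at 693 CPM in the one with high Cd79a, while Cyp2a5 is below every 12:12 male in all 4.

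The 3 receptors all had negative fold changes and none passed the threshold. Nr1i3 ran from 202 to 452 CPM (median 373) in females under 12:12, from 151 to 438 (median 296) in females under jet lag and from 259 to 336 (median 276) in males under 12:12. The jet lag males held 156, 159, 223 and 203 CPM, all below every male under 12:12 before TMM scaling. Its log2 fold change over both sexes was -0.41 (SE 0.16, adjusted p = 0.403). Nr1i2 ran from 81.3 to 127 CPM and from 57.3 to 126 CPM in females under 12:12 and jet lag, and from 82.7 to 118 CPM in males under 12:12. The jet lag males held 69.6, 78.2, 72.4 and 57.8 CPM, again all below the 12:12 males before TMM scaling. That scaling raises jet lag males 6 and 7 (factors 0.8791 and 0.8018). The log2 fold change of Nr1i2 was -0.28 (SE 0.12, adjusted p = 0.512). For Ahr it was -0.20 (SE 0.16, adjusted p = 0.954), with females from 13.5 to 50.3 CPM under 12:12 and 28.2 to 43.1 under jet lag. Males held 20.3 to 36.3 CPM of Ahr under 12:12, and 22.6, 18.7, 10.7 and 23.1 CPM under jet lag. At an unadjusted p under 0.05, 2 receptors counted over both sexes, 0 in females and 3 in males, beside 1353, 772 and 1630 of all 16892 genes.

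Among the 17 phase I members not past the threshold the fold changes ran from the -0.37 of Fmo5 to the 0.45 of Cyp2b10. Cyp2e1 had the smallest p-value of these, at a log2 fold change of -0.36 (SE 0.14, adjusted p = 0.379). Its levels were 4538 to 11330 CPM (median 9753) in females under 12:12 and 6218 to 9962 (median 7584) under jet lag. Males held 7329 to 10887 CPM (median 9899) under 12:12, and 8072, 6770, 6922 and 5002 CPM under jet lag. The groups overlapped in females, and in males 3 of 4 jet lag libraries lay below all under 12:12 before TMM scaling. Without the 8 libraries of high Cd79a its log2 fold change was -0.40 (SE 0.09, adjusted p = 0.0188, edgeR), which passed. Cyp3a11, the main PXR target of mouse liver, was at 0.20 (SE 0.13). The AhR targets Cyp1a2 and Cyp1a1 were at -0.28 (SE 0.21) and 0.17 (SE 0.27). None of them passed the threshold.

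Cyp2b10, the classical CAR target, had the largest interaction of sex and lighting among the members. Females ran from 48.3 to 190 CPM under 12:12 and from 27.2 to 172 under jet lag, while males ran from 10.9 to 53.5 CPM under 12:12. The jet lag males held 43.8, 67.5, 123 and 61.7 CPM, of which 3 exceeded every male under 12:12 before TMM scaling. The log2 fold change was -0.02 (SE 0.37) in females and 1.21 (SE 0.47, adjusted p = 0.419) in males. The test of the difference itself, the interaction of sex and lighting, gave -1.24 (SE 0.59, adjusted p = 0.814) and did not pass.

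None of the 13 phase II members passed the threshold, and their fold changes were the smallest of the roles, from -0.23 to 0.19 with a median of 0.03. At an unadjusted p under 0.05 the count was 1, Ugt1a1, which conjugates bilirubin. Ugt1a1 ran from 652 to 1212.1 CPM (median 1058) in females under 12:12, from 622 to 1094 (median 963) under jet lag and from 677 to 952 (median 794) in males under 12:12. The jet lag males held 704, 677, 581 and 607 CPM, and the log2 fold change was -0.23 (SE 0.10, adjusted p = 0.537). Its exons are shared with the other Ugt1a genes, so 58.2% of its 50-base stretches recur in them. Gstm2, a glutathione transferase, was at 0.19 (SE 0.14, adjusted p = 0.923), with ranges of 14 to 20.8 and 11.4 to 29.1 CPM in females and 11.7 to 22.3 and 13.3 to 21.4 in males. Ugt2b5 was at -0.14 (SE 0.21, adjusted p = 0.999), with ranges of 407 to 915 and 411 to 1000 CPM in females and 618 to 1316 and 285 to 1285 in males, each 12:12 first.

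Abcb1a encodes a P-glycoprotein, the pump that exports lipophilic drugs, and stood just outside the threshold. It ran from 14.8 to 38.7 CPM (median 22.8) in females under 12:12, from 5.24 to 30.5 (median 18.4) under jet lag and from 7.72 to 14.2 (median 9.92) in males under 12:12. The jet lag males held 4.79, 4.59, 2.49 and 7.35 CPM, all below every 12:12 male. The log2 fold change was -0.75 (SE 0.20, adjusted p = 0.0855, edgeR). It passed at -0.74 (adjusted p = 0.0354) without the 8 libraries of high Cd79a, without female 6 under 12:12 (0.0366), without female 1 under jet lag (0.0351), and with DESeq2 (0.0214). In the other 29 of 33 alternatives it did not pass, and without jet lag male 7 its adjusted p was 0.178 (edgeR). Of its 50-base stretches 17.6% recur elsewhere, mostly in its copy Abcb1b, which had a log2 fold change of -0.31 (SE 0.21, adjusted p = 0.869). Abcc3, a pump for glucuronides, was at -0.21 (SE 0.13, adjusted p = 0.818).

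**Figure D2:**
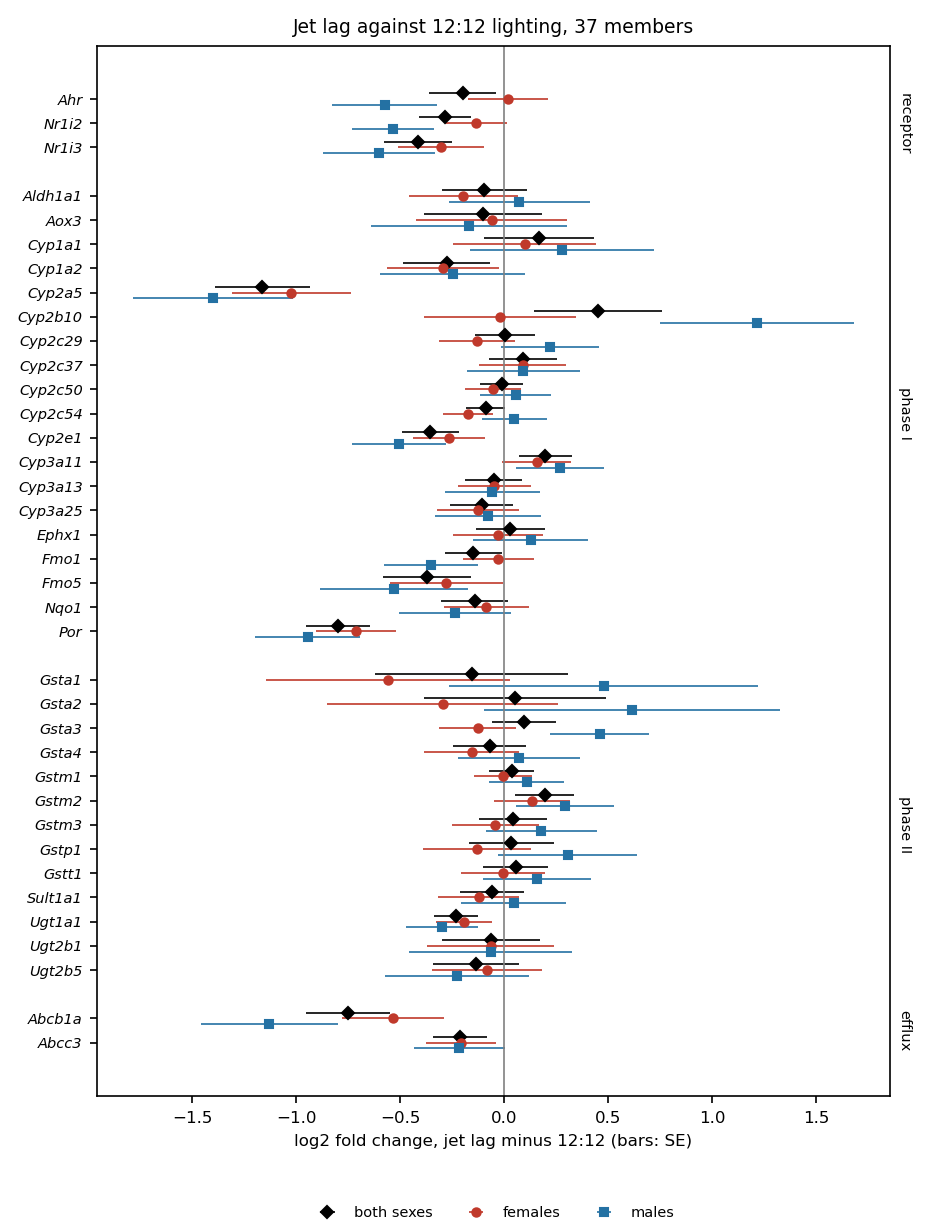
Log2 fold change of jet lag minus 12:12 with its SE for the 37 members by role, over both sexes (black diamonds), in females (red circles) and in males (blue squares). Por at -0.80 and Cyp2a5 at -1.16 over both sexes are the members past the threshold; the phase II members lie between -0.23 and 0.19 over both sexes.

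Within one sex no member passed. In females the edgeR test called 0 of 37 members and 0% of all genes, with 3 members and 772 of all genes at an unadjusted p under 0.05. Neither DESeq2 nor limma-voom called a member there. In males it called 0 members and 0.0118% of all genes, with 8 members and 1630 of all genes at an unadjusted p under 0.05. DESeq2 called 2 members, Por and Cyp2a5, and 87 of 15526 genes, and limma-voom called 0 members. The interaction called 0 members and 0% of all genes, with 1 member, Cyp2b10, at an unadjusted p under 0.05 and 0 members by DESeq2 or limma-voom. In the 18 libraries of low Cd79a, 4 members fell over both sexes, Por, Cyp2a5, Abcb1a and Cyp2e1, beside 2.32% of all genes. In males alone 3 fell there, Por at -1.37 (SE 0.22), Cyp2a5 at -1.60 (SE 0.30) and Abcb1a at -1.27 (SE 0.27), beside 1.33% of all genes. Neutrophil markers had positive fold changes in 8 of 8 (median 1.39, and 2.38 in males alone), none past the threshold. Their summed level was 1.57 to 226 CPM (median 3.66) under 12:12 and 1.19 to 450 CPM (median 3.8) under jet lag, no marker being at 0 throughout. In the libraries of low Cd79a that sum was at most 7.32 CPM. There Por had a log2 fold change of -0.88 (SE 0.16) and Cyp2a5 of -1.16 (SE 0.20). The part of neutrophils in the lighting differences was not tested.

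The spread within groups was described without a test. The SD of log2 CPM within groups was larger under jet lag for 29 of 37 members, beside 68.2% of all genes tested. Both include the libraries of high Cd79a, and the lightings were not compared in spread without them. The most variable members over all groups were Gsta1 (SD 1.27) and Gsta2 (SD 1.23), glutathione transferases of the alpha class, and the least were Cyp2c50 (0.19) and Cyp2c54 (0.19). In the libraries of low Cd79a the median SD of the members was 0.26, beside 0.32 for all genes, and over all libraries it was 0.42 beside 0.43.

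Of 178 further genes of the pathway, 169 were tested, 2 fell under jet lag over both sexes and none rose, with a median log2 fold change of -0.02. Alas1, the rate-limiting enzyme of the synthesis of heme, which every P450 carries, fell by 1.47 on the log2 scale (SE 0.31, adjusted p = 0.0167, edgeR). It ran from 517 to 1858 CPM in females under 12:12, from 132 to 678 under jet lag and from 640 to 1946 in males under 12:12, and the jet lag males held 331, 979, 84 and 308 CPM. Of the circadian PAR bZIP factors Tef fell by 1.00 (SE 0.24, adjusted p = 0.049, just under the threshold). Its medians went from 73.1 and 62.9 CPM in females and males under 12:12 to 44.4 and 29.7 CPM under jet lag. Named after their values were seen, its relatives Dbp (-1.28, SE 0.48, adjusted p = 0.373) and Hlf (-0.57, SE 0.16, adjusted p = 0.106) did not pass. Dbp had the widest range of the 3, 2.6 to 123 CPM in jet lag females and 64.5 to 219 CPM in females under 12:12, and the hour of collection of each liver is not known here. In 7 of the 8 libraries of high Cd79a, Alas1 and likewise Tef lay below the low Cd79a median of the sex, both lightings pooled. No fit without those libraries is given for these 2 genes.

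Females and males differed in 7 of the 37 members under 12:12, where the same test called 3.68% of all genes. Higher in females were Abcb1a, Cyp2c37 and Cyp2b10, and lower were Gstp1, Ugt2b1, Cyp3a11 and Aox3. Under jet lag 5 members differed, beside 1.92% of all genes: Abcb1a and Fmo1 were higher in females, and Gstp1, Ugt2b1 and Cyp3a11 lower. The comparisons under 12:12 and under jet lag share no libraries, only an estimate of the spread.

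Gstp1, the pi class glutathione transferase, gave the largest difference between the sexes among the members. It ran from 126 to 181 CPM (median 158) in females under 12:12 and from 120 to 187 CPM (median 141) under jet lag. Males under 12:12 ran from 266 to 1100 CPM (median 917), and the jet lag males held 1661, 903, 1245 and 289 CPM. All 16 females were below all 10 males. The log2 fold change, female minus male, was -2.58 (SE 0.29, adjusted p = 2.07e-06, edgeR) under 12:12 and -3.02 (SE 0.31, adjusted p = 4.28e-07) under jet lag. Its copy Gstp2, with which it shares 33.7% of its 50-base stretches, was at -2.31 (SE 0.31) under 12:12.

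Ugt2b1, a glucuronyl transferase whose upstream window with the D-box letters is printed above, ran from 123 to 269 CPM in females under 12:12 and from 123 to 304 under jet lag. Males held 185 to 640 CPM under 12:12, and 584, 679, 487 and 99.8 CPM under jet lag. The groups overlapped through male 3 under 12:12 and male 8 under jet lag, both libraries of high Cd79a. The log2 fold change was -1.39 under both lightings (SE 0.33 and 0.36, adjusted p = 0.0141 and 0.0393). Cyp3a11 held 2445 to 4759 CPM in females and 3191 to 5684 in males under 12:12, a log2 fold change of -0.74 (SE 0.18, adjusted p = 0.0169). Under jet lag females ran from 2479 to 5100 CPM and males held 6797, 5823, 5885 and 3747 CPM, at -0.85 (SE 0.20, adjusted p = 0.0201). Aox3, an aldehyde oxidase, was at -1.41 (SE 0.39, adjusted p = 0.0416) under 12:12, with 96.9 to 383 CPM in females and 162 to 943 in males. In the 26 fits that left out 1 library each, Aox3 passed in 14 under 12:12 and Ugt2b1 in 13 under jet lag.

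Of the members higher in females, Abcb1a differed by 1.23 (SE 0.27, adjusted p = 0.00904) under 12:12 and 1.82 (SE 0.33, adjusted p = 0.00208) under jet lag, and 14 of 16 females were above all 10 males. Cyp2c37, a P450 that acts on fatty acids, differed by 0.99 (SE 0.23, adjusted p = 0.0151) under 12:12, with 758 to 1582 CPM in females and 396 to 1348 in males. Without male 1 or male 4 under 12:12 its adjusted p was 0.0576 or 0.0509. Cyp2b10 differed by 1.49 (SE 0.41, adjusted p = 0.0431), and passed in 13 of the 26 fits that left out 1 library each. Fmo1, a flavin monooxygenase, differed by 0.85 (SE 0.22, adjusted p = 0.0393) under jet lag, where females held 214 to 403 CPM and males 153, 191, 148 and 116 CPM. Under jet lag Fmo1 passed in 18 and Cyp3a11 in 23 of the 26 fits that left out 1 library each, with adjusted p up to 0.103 (without jet lag male 5) and 0.0966 (without jet lag male 7).

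**Figure D3:**
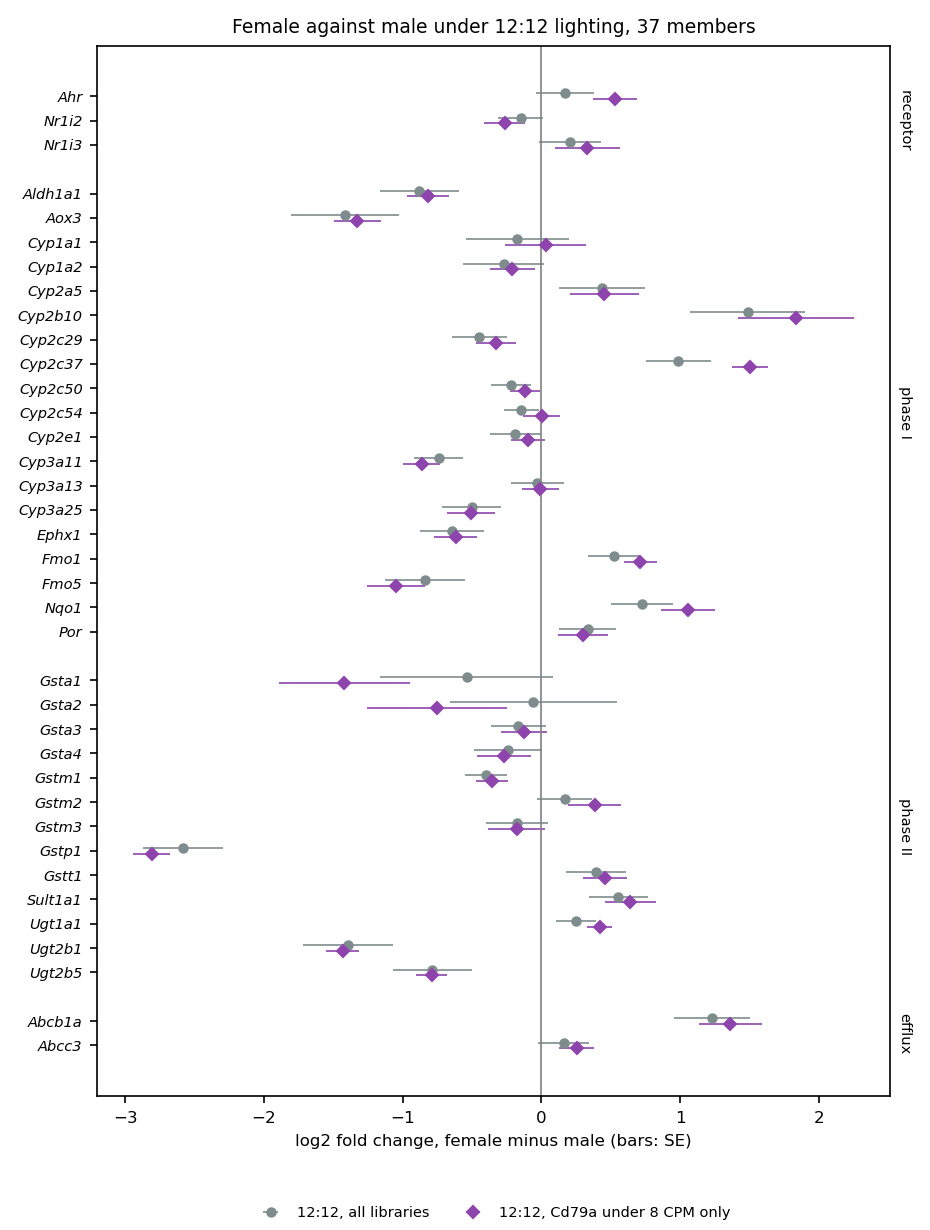
Log2 fold change, female minus male, under 12:12 with its SE for the 37 members by role, from all libraries (grey circles) and from those under 8 CPM Cd79a (purple diamonds). Gstp1 lies at -2.58 and -2.81; Cyp2c37 moves from 0.99 to 1.51 when the libraries of high Cd79a are left out.

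More members differed between the sexes when the 8 libraries of high Cd79a were left out. Under 12:12 16 members then passed, 8 higher and 8 lower in females, beside 8.26% of all genes, and under jet lag 22 passed, 8 higher and 14 lower, beside 11.6%. Among those that joined under 12:12 were Nqo1, a quinone reductase (1.06, SE 0.19, adjusted p = 0.000938), Aldh1a1, which makes retinoic acid (-0.82, SE 0.15, adjusted p = 0.00133), and Fmo5 (-1.05, SE 0.21, adjusted p = 0.0027). Under jet lag Por was then higher in females by 1.09 (SE 0.21, adjusted p = 0.00176). Markers of other cell types had mostly positive fold changes (female minus male) under 12:12, with none past the threshold in the lists that follow. They were positive for 8 of 8 T and NK cell markers (median 1.12), 8 of 8 neutrophil (1.63), 7 of 7 macrophage (0.38) and 6 of 7 erythroid markers (0.91). The summed level of the T and NK cell markers was 4.15 to 6.49 CPM in females and 1.8 to 3.49 CPM in males, no marker being at 0 throughout. That of the neutrophil markers was 2.69 to 226 CPM (median 5.13) and 1.57 to 34.8 CPM (median 3.02). Under jet lag 7 of 8 T and NK cell markers were positive (median 0.92) and 1 was called higher in females, and 5 of 8 neutrophil markers were positive (median 0.18). Their part in the sex differences was not tested.

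The 8 libraries with Cd79a of 8 CPM or more were described against the other 18 without a test, since a measured gene sets these classes and they are not groups of the study. Each library's log2 CPM was set against the median of the low Cd79a libraries of its sex, with both lightings pooled. The median of those differences over the 8 libraries is given. By this measure 9 of 37 members lay past 1.5-fold, 7 lower and 2 higher, while 25.6% of all genes did, 5.54% lower and 20.1% higher. The median was -0.07 for the members and 0.12 over all genes tested. After TMM scaling these medians were -0.19 and -0.04, and 9 members lower and 0 higher were past 1.5-fold, beside 1489 lower and 2675 higher genes. Of the 8 libraries 4 were under each lighting. B-lineage markers had a median difference of 4.07, neutrophil markers of 4.13, macrophage markers of 0.81 and erythroid markers of 0.94, beside 0.03 for hepatocyte markers. Endothelial markers were at 0.36 and stellate and fibroblast markers at 0.25. T and NK cell markers were at -0.38 (7 of 8 negative) and cholangiocyte markers at -0.22 (4 of 5 negative). Their part in the differences of the members was not tested.

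Aox3 had the lowest value, -0.93. It ran from 275 to 394 CPM (median 315) in the 11 females of low Cd79a, and the 5 of high Cd79a held 96.9 to 239 CPM (median 170), all below them. In males the 7 of low Cd79a ran from 508 to 1212.1 CPM, and the 3 of high Cd79a held 162, 943 and 131 CPM. Aldh1a1, at -0.90, ran from 631 to 1161 CPM in females of low Cd79a and 425 to 788 in those of high Cd79a. Males of low Cd79a held 1383 to 1881 CPM of it, and those of high Cd79a 679, 1726 and 735 CPM. Cyp1a2, which oxidizes caffeine and aromatic amines, was at -0.78, with 664 to 1317 CPM against 369 to 797 in females, and 898 to 1330 against 545, 1345 and 354 CPM in males. The other members past 1.5-fold lower were Ugt2b1 (-0.75), Cyp2a5 (-0.74), Ugt2b5 (-0.73) and Cyp1a1 (-0.63). Since the reference pools both lightings, the value of Cyp2a5, which fell under jet lag, mixes lighting and class. Jet lag male 8 held more Cyp2a5 than every jet lag male of low Cd79a, yet lay below that reference. Gstt1 (-0.43) lay below the median of the low Cd79a libraries of its sex in 8 of 8.

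Fmo5, which oxidizes ketones, and Cyp3a13 were the 2 members past 1.5-fold higher. Fmo5 was at 0.63 (0.48 after TMM scaling), with 186 to 385 CPM in females of low Cd79a and 121 to 829.3 in those of high Cd79a. Males held 288 to 612 CPM of Fmo5 at low Cd79a and 849, 644 and 357 CPM at high Cd79a. Cyp3a13 was at 0.62 (0.43 after TMM scaling), with 147 to 213 CPM against 131 to 311 in females, and 144 to 207 against 311, 151 and 245 CPM in males. Gsta2, next at 0.56, ran from 3.21 to 33.9 CPM in females of low Cd79a and from 1.45 to 81.7 in those of high Cd79a, so it held both the highest and the lowest female value. Of its 50-base stretches 49.8% recur in other genes, chiefly Gsta1.

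**Figure D4:**
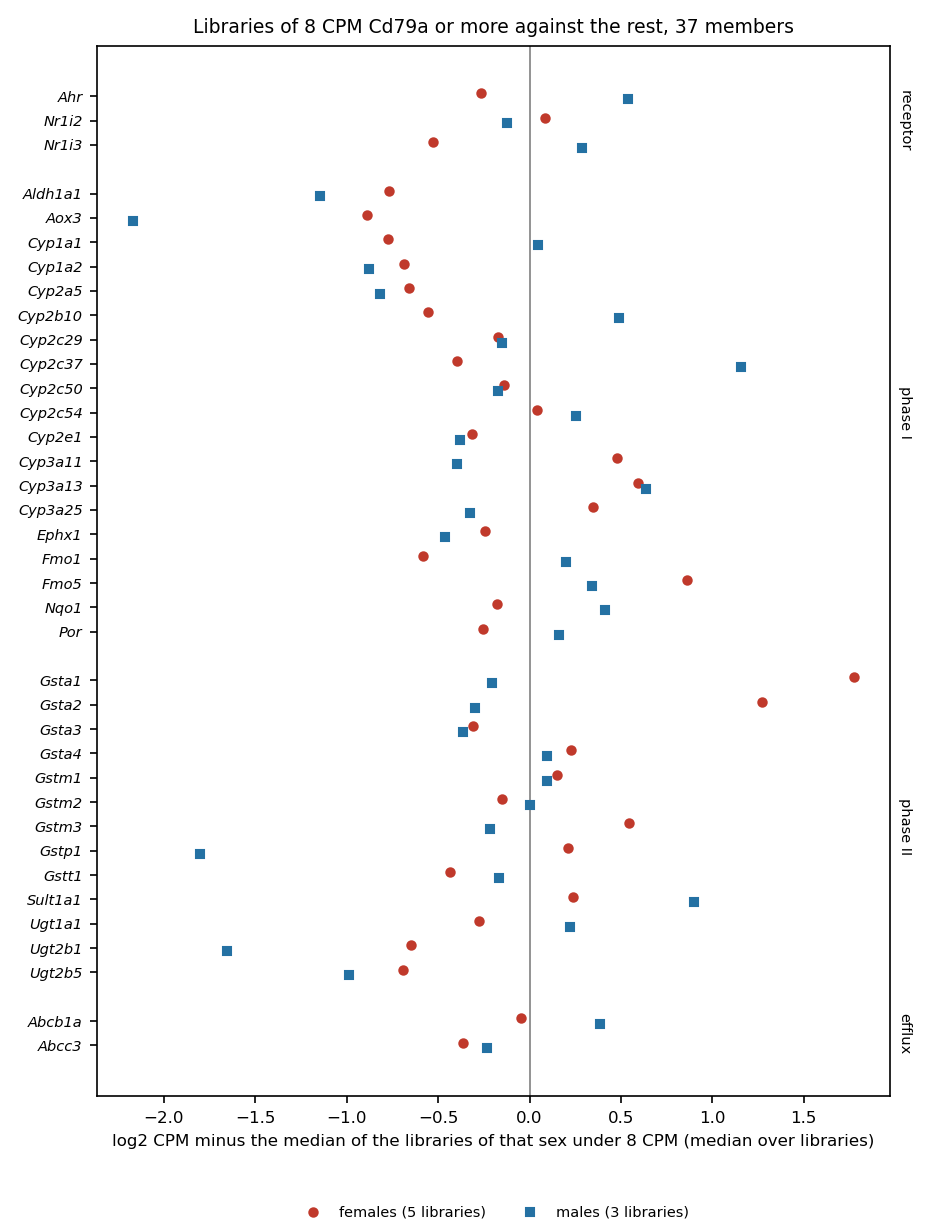
Difference of log2 CPM from the median of the libraries of the same sex under 8 CPM Cd79a, as the median over the 5 females (red) and the 3 males (blue) of 8 CPM or more, for the 37 members by role. Gstp1 is at 0.21 in females and -1.80 in males, and Cyp2c37 at -0.40 in females and 1.16 in males.

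The value of a member could differ between the sexes in this description. Gstp1 was at -1.80 in the 3 males of high Cd79a and at 0.21 in the 5 females, and Cyp2c37 at 1.16 and -0.40. Members not called between the sexes could differ as much: Gsta1 was at -0.21 in males and 1.77 in females, and Gsta2 at -0.30 and 1.27. Of the receptors, Nr1i3 was at 0.29 in males and -0.53 in females, and Ahr at 0.54 and -0.27. In male 3 under 12:12 and male 8 under jet lag, Gstp1 was 266 and 289 CPM, against 841 to 1661 in the 7 males of low Cd79a and 120 to 187 in all females. Cyp2c37 was 1348 and 1062 CPM, against 396 to 586 in the males of low Cd79a and 758 to 1789 in females. Ugt2b1 was 185 and 99.8 CPM, against 487 to 679 and 123 to 304 CPM. Aox3 in these 2 males was also below every male of low Cd79a and inside the range of the females. Abcb1a, higher in females, was 14.2 and 7.35 CPM in these 2 males, the highest male values under 12:12 and under jet lag. Both lay below the medians of 22.8 and 18.4 CPM in females under 12:12 and jet lag. Male 5 under 12:12, the third male of high Cd79a, held 867 CPM of Gstp1, 524 of Cyp2c37 and 502 of Ugt2b1, each near the males of low Cd79a. The difference between the sexes was not tested.

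**Figure D5:**
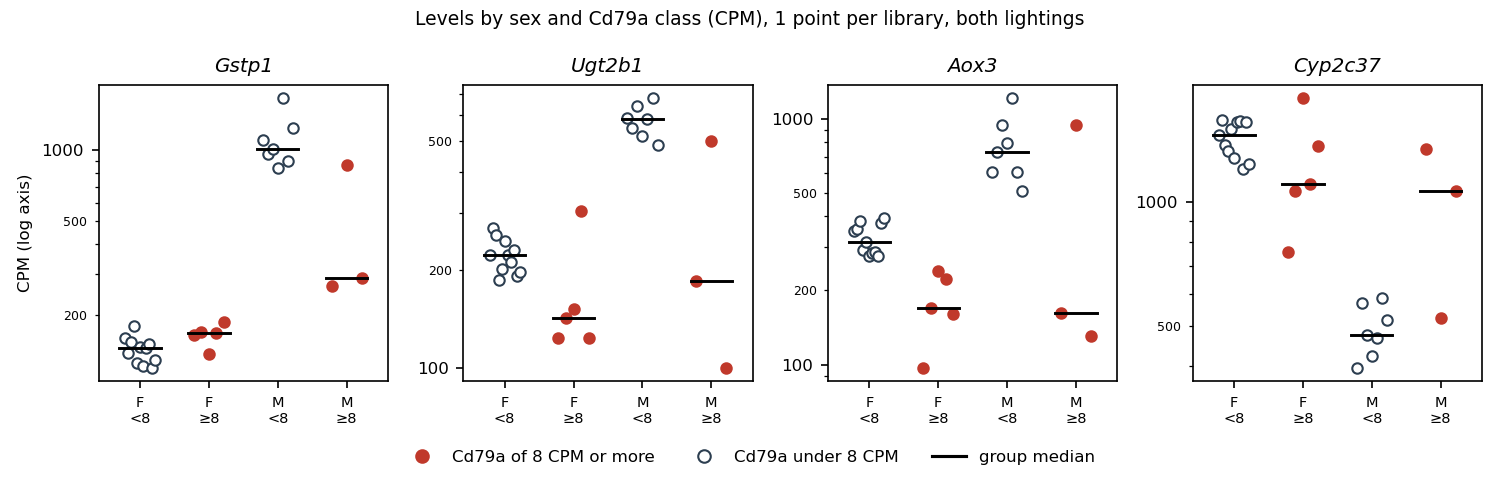
Level in CPM (log axis) of Gstp1, Ugt2b1, Aox3 and Cyp2c37 in each library by sex and Cd79a class, with lines for the medians and filled points for 8 CPM Cd79a or more. Of the 3 males of 8 CPM Cd79a or more, 2 lie near the females for Gstp1 (266 and 289 CPM) and 1 lies near the other males (867 CPM).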

How the data were processed

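RNA of mouse liver was sequenced as stranded mRNA libraries, per the labels. The deposited raw table gives each gene name an expected count per library that the authors did not normalize, in which 0.015 stands for 0 (45.82% of cells) and was set to 0. A further 1.44% of cells were not whole (tolerance 1e-06) and were rounded, and the lines of a shared name were summed. STAR, DESeq2 and mm10 are named in the submitters' processing notes, and no source used here gives the counting tool, annotation or strand setting. The normalized signal deposited by the authors equals the count times 1 factor per library in 99.97% of cells (tolerance 0.001) and served as a check. The authors' deposited DESeq2 table lists per gene a mean signal, a log2 fold change and SE, the Wald statistic (a score) and raw and adjusted p-values.

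Counts were filtered by filterByExpr per group (count minimum 10), scaled by TMM and tested with edgeR 4.0.16 (glmQLFit with robust estimation, glmQLFTest, R 4.3.3) over all 26 libraries. The 2 lightings were compared over both sexes with sex and lighting as additive terms, and all else with 4 group means. P-values were adjusted over all genes by Benjamini and Hochberg, with a threshold of 0.05, and all adjusted p-values are edgeR's unless another tool is named. For the SE, the absolute log2 fold change was divided by sqrt(F). Levels in CPM use the column sum, log2 CPM a prior count of 2. The code was tested on simulated data. Libraries of a group differed by a chi-square per degree of freedom of at least 31.5, so none is a copy of another of its group. Libraries of different groups were not compared in this way. The p-values rest on the spread between libraries, each taken as a separate animal. Gene spans and exon lengths are GENCODE's on GRCm38. The limit for a gene without counts covers counting error only, while the SE includes the spread between animals.

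The members and lists were chosen with earlier results of these data known. Library values were given for members past the threshold in a lighting comparison, those with the smallest p-value in each role, the 3 higher and 3 lower with the smallest p-value between the sexes, and the 3 at either end between the Cd79a classes. Aox3, Fmo1, Nqo1, Aldh1a1 and Fmo5 between the sexes, Cyp1a1, Cyp1a2, Cyp3a11 and Abcc3 under lighting, and Gstt1 were added after their values were seen. The alternatives were DESeq2 1.42.0, limma-voom (limma 3.58.1), other size factors, no filter, a Cd79a covariate, a replicate block, fits on the libraries of 1 sex or lighting, and leaving out libraries. Cyp2c23, Cyp2d13 and Sult2a8 of the further list were not matched by name.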

Additional observations from a re-analysis of the deposited data

Results flagged for a closer look

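Within each group, 21 named members were searched for a library whose gap to the nearest other, divided by the group's range of log2 CPM, exceeded Dixon's 95% value. Of 84 combinations of member and group 15 did so, and chance alone flags about 1 in 20. Each of the 15 lay in a library with Cd79a of 8 CPM or more, but 6 of the 21 members had been chosen as extreme between the Cd79a classes and gave 5 of the 15, so nothing is read from this. Male 3 under 12:12 gave 8 of them: Cyp2a5 at 929 CPM, Cyp2e1 at 7329, Gstp1 at 266, Ugt2b1 at 185, Aox3 at 162 and Aldh1a1 at 679 CPM were the lowest of its group. Its Gstm2, at 22.3 CPM, and Cyp2c37, at 1348 CPM, were the highest. Male 8 under jet lag gave Por, at 693 CPM the highest of its group, and Cyp1a2, at 354 CPM the lowest. Female 6 under 12:12 gave Cyp2e1 at 4538 and Ugt1a1 at 652 CPM, both lowest, and Cyp3a13 at 311 CPM, highest. Female 5 under jet lag gave the lowest Abcb1a, at 5.24 CPM, and the lowest Gsta2, at 1.45 CPM.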

How the results depend on the processing

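The sign held under every setting for each of the 16 single gene values recomputed, and Cyp2b10 in females, at -0.02, was 0.16 without the libraries of high Cd79a. Por stayed past the threshold over both sexes in the 7 other settings and the 26 fits without 1 library (log2 fold change -0.91 to -0.75), and Cyp2a5 (-1.32 to -1.08) in those but the replicate block. The count of members called over both sexes was 2, with 4 without the libraries of high Cd79a, 1 with the replicate block and 2 to 3 without 1 library. In males the count of 0 became 3 without those libraries, 2 with DESeq2 and 0 to 1 without 1 library, the 1 being Por without male 8. In females and in the interaction it was 0 in every setting. Between the sexes under 12:12 the count of 7 became 13 with the Cd79a covariate, 16 without the libraries of high Cd79a and 4 to 10 without 1 library, 4 being without male 1 or male 4 under 12:12. Under jet lag the count of 5 became 13 with the covariate, 22 without the libraries of high Cd79a, 10 with DESeq2 and 2 to 13 without 1 library. It was 13 without male 8, 9 without female 6 under 12:12 and 8 without male 3 under 12:12. It was 2 without jet lag male 5 or male 7, and 3 without jet lag male 6 or females 1, 3, 4, 7 or 8. Between the Cd79a classes the count of 9 was 9 at a limit of 4 CPM, 10 at 16 CPM and 7 to 10 without 1 library. Over all genes the lighting count of 132 became 267 with DESeq2, 288 with the covariate and 381 without the libraries of high Cd79a, and lay between 70 (without jet lag female 3) and 244 (without jet lag male 8) without 1 library. In females the count over all genes of 0 became 28 with the covariate, 55 with DESeq2, 14 on females alone, 19 with the replicate block and 13 without those libraries. In males the 2 became 61, 87, 0, 4 and 219 in the same order, and 0 with the other size factors, and at most 106 without 1 library (jet lag male 8) where females reached 13 (without jet lag female 8). Between the sexes under 12:12 the 622 became 1283 with the covariate, 965 with DESeq2 and 1357 without those libraries, and lay between 346 (without male 1 under 12:12) and 848 (without jet lag male 8) without 1 library. Under jet lag the 324 became 991, 642 and 1902, and 209 with limma-voom and 145 on jet lag libraries alone, with 194 (without jet lag male 6) to 967 (without jet lag male 8) without 1 library. The cause of these changes was not tested.

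The labels do not say whether shared numbers pair animals across lighting, and the few correlations at hand cannot decide it. The deviations of same-numbered females correlated between -0.384 and 0.602 (8 pairs, 1 matching its own number best). Those of 2 male pairs correlated at -0.269 and 0.267. With the replicate block the interaction, female and male counts of members remained at 0. The block could not be fitted for the comparisons between the sexes. The 4 males under jet lag limit every male comparison.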

Other observations

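Of the further pathway genes 2 changed with lighting over both sexes, and more were called between the sexes. Under 12:12 22 of 169 were higher in females and 15 lower, and under jet lag 14 and 11, where the same tests called 3.68% and 1.92% of all genes. As examples named after their values were seen, Cyp3a41a, a female P450 of mouse liver, held 408 to 2577 CPM in the 8 females and 11.8 to 18.3 CPM in the 6 males under 12:12. Cyp2d9, a steroid hydroxylase of male liver, held 31.3 to 91.1 CPM in these females and 222 to 1964 CPM in these males.

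The same 2 males of high Cd79a that held low Gstp1 stood apart in Cyp2d9. Male 3 under 12:12 held 222 CPM and male 8 under jet lag 152 CPM, against 1775 to 2193 CPM in the 7 males of low Cd79a and 1962 CPM in male 5 under 12:12. Cyp3a41a was 16.3 and 13.1 CPM in these 2 males, inside the range of the other males and far below every female. Cyp2a4, higher in females than in males under 12:12 (log2 fold change 2.72, SE 0.45, adjusted p = 0.00059), was 543 and 683 CPM in them. It ran from 75.3 to 468 CPM in the males of low Cd79a and from 720 to 3716 CPM in females.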
